A study of Mus musculus with 4 samples.

Results

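The Bcl2 family survival genes are 7 genes that set how readily a cell dies through its mitochondria, namely Bcl2a1a, Bcl2a1b, Bcl2a1d, Mcl1, Bcl2, Bcl2l1 and Bcl2l11. They were chosen by symbol and are 7 of the 21739 gene symbols listed in at least 1 of 4 single-cell libraries of mouse wound skin; each library lists all 7. In the study, hucMSC-Exosomes, vesicles released by mesenchymal stem cells of the human umbilical cord, were given to mice with skin wounds, and the cells around the wound were profiled by droplet RNA sequencing. All 4 mice were C57/BL6j, 6 weeks old, and were sampled on day 7, with 1 library per mouse. The hucMSC-Exo group of 2 mice received 100 µg of hucMSC-Exosomes every 48 hours, and the Control group of 2 mice received PBS at the same times. In the labels, gut segments stand as tissue although cell type and protocol speak of skin, and letters in the file names group the 4 libraries differently from the titles. All directions given here rest on the titles. Neutrophil-gated cells number 366 in Control and 579 in hucMSC-Exo by the titles, and 120 and 825 in the groups formed by the letters; for C1q macrophage-gated cells these numbers are 471 and 367, and 290 and 548. The study reports far more neutrophils and M2 macrophages with hucMSC-Exo, which in raw numbers is nearer to the letters. However, the groups formed by the letters differ in size, with 952 and 1416 kept cells in 1 and 2074 and 2001 in the other. Raw numbers carry these sizes, and shares of cells were not compared. The C1q gate is also not the M2 class of the study, which was marked by Mrc1. If the titles were wrong, every difference between hucMSC-Exo and Control given here would be one between other pairs of mice, whereas the comparisons between classes do not use the groups.

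Proteins of the Bcl2 family decide whether the outer mitochondrial membrane is opened, the step that releases cytochrome c and starts the caspases. Bcl-2, Bcl-xL (Bcl2l1), Mcl-1 and A1 (the Bcl2a1 genes) hold the membrane closed by binding the pore-forming proteins Bax and Bak, and BH3-only proteins such as Bim (Bcl2l11) set these free again. Neutrophils are short-lived cells that depend on the quickly turned-over proteins Mcl-1 and A1, whereas many resting lymphocytes depend on Bcl-2.

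Library values always follow the order Control 1 and 2, then hucMSC-Exo 1 and 2. The libraries held 1098, 2422, 1539 and 2119 deposited cells with 6657095, 16950639, 8198377 and 10270615 unique molecular identifiers (UMIs, counted molecules). The study reports more cells for each mouse and separated immune cells with Ptprc by computation. Shares of kept cells given here are therefore shares of the deposited cells and not of wound skin. After cells with over 3000 detected genes or over 10% mitochondrial UMIs were left out, 952, 2074, 1416 and 2001 cells remained, with a median of 4262.5, 4392.5, 3747 and 3752 UMIs. Libraries shared at most 2 cell barcodes. The leukocyte gene Ptprc had a UMI in 87.1%, 83.7%, 81.4% and 83.9% of the kept cells. Cells were assigned to classes by lists of 8 marker genes, none of them a family member, with at least 3 markers needed; 5671 of 6443 kept cells received a class. Levels are UMIs per 1000000 UMIs of the cells of a class in a library (CPM), for libraries with at least 10 such cells. In the kept cells the family gave 25546 UMIs of Mcl1, 17136 of Bcl2a1b, 10687 of Bcl2a1d, 4976 of Bcl2l11, 3018 of Bcl2a1a, 1938 of Bcl2 and 1446 of Bcl2l1. These totals mix molecule numbers with the share of each transcript that can be assigned to 1 gene, so levels are compared between classes for 1 gene at a time.

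The A1 genes are near-identical neighbours, which limits how far they can be told apart. Bcl2a1d (chr9:88723285-88731914, minus strand), Bcl2a1a (chr9:88956900-88962419, plus strand) and Bcl2a1b (chr9:89199209-89207827, plus strand) lie within 485 kb of GRCm38, and the other 4 members lie on chromosomes 1, 2 and 3. Of all windows of 90 bases, taken as the length of a read, 47.0% in the Bcl2a1a transcript, 36.1% in the Bcl2a1b transcript and 61.6% in the Bcl2a1d transcript also occur in another of the 3. The libraries read the 3′ ends of transcripts, and in the last 500 bases these shares were 39.7%, 39.4% and 65.2%. Reads from such windows have no single gene of origin, so the sum of the 3 genes (A1 sum) is given too. It adds the UMIs assigned to each gene and does not bring back reads that could not be placed. Their promoters, which RefSeq gives for all 3 (GRCm38.p6, 250 bases before to 50 after the start), are 99.2% identical between Bcl2a1a and Bcl2a1b over their aligned columns, 96% between Bcl2a1a and Bcl2a1d and 96.5% between Bcl2a1b and Bcl2a1d. They are shown because Bcl2a1a differs from its neighbours in class pattern in spite of this likeness. Capitals mark GAGGAAGT, a motif of the type bound by the myeloid and lymphoid factor PU.1, searched on both strands; each promoter holds it once, at base -104, -148 and -104 from the start for Bcl2a1a, Bcl2a1b and Bcl2a1d, as do 3.2% of 32851 promoters. The NF-κB consensus, held by 8.46% of promoters, was not in these windows. The sequences are chr9:88956670-88956969 on the plus strand, chr9:89199023-89199322 on the plus strand and chr9:88731801-88732100 on the minus strand.
Bcl2a1a: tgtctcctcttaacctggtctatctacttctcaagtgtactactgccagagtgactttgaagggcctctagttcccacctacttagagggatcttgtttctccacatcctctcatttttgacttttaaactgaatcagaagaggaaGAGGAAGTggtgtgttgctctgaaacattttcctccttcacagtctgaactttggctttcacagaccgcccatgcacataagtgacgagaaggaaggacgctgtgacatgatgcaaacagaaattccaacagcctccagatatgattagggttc
Bcl2a1b: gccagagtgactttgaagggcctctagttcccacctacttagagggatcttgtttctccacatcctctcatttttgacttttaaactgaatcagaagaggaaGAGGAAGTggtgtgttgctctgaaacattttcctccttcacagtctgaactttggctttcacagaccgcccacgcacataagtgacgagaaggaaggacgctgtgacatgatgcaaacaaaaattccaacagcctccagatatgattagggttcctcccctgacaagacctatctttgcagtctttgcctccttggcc
Bcl2a1d: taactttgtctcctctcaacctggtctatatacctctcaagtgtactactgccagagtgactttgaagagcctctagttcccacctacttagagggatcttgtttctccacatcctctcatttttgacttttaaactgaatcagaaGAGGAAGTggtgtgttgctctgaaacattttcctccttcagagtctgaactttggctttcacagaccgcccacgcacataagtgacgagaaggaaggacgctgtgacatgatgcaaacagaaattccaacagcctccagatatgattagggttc

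The A1 genes were highest in IL-17 γδ T-gated cells, the innate-like T cells of skin that make interleukin 17. Their 3 genes together reached 3108, 4644, 3618 and 4143 CPM. Every one of these libraries was above every library of the other 14 classes measured. These cells were 8.27% of the kept cells and held 37.0% of all A1 UMIs. Next came T-gated cells without a subclass with 1916 ± 170 CPM (mean and SD, n = 4), again above every library of the classes below them. The αβ T-gated cells (1186 ± 200, n = 4), group 2 innate lymphoid cells (1163 ± 402, n = 3), keratinocyte-gated cells (1152 ± 140.4, n = 4) and neutrophil-gated cells (947 ± 446, n = 4) overlapped. Of the 393 keratinocyte-gated cells 75.3% had a Ptprc UMI, so the label does not describe a pure class. Conventional dendritic cells (885, n = 2) and mononuclear phagocytes without a subclass (583 ± 38.5, n = 4) came next. Further down by the mean, C1q macrophage-gated cells had 441 ± 127 CPM and monocyte-gated cells 375 ± 232 (n = 4 each). These overlapped with each other and with osteoclast-like macrophage-gated cells (299 ± 172, n = 3). Control 1 of the monocyte-gated cells lay above every library of mononuclear phagocytes without a subclass and within the neutrophil-gated range. Dendritic epidermal T-gated cells, the γδ T cells resident in mouse epidermis, had 152 ± 44.0 and natural killer-gated cells 150.1 ± 28.4 CPM (n = 4 each), with plasmacytoid dendritic cells at 149 ± 189 (n = 3). In that last class 83.0% of the 47 cells had high doublet scores, and 45 of its 56 A1 UMIs came from 1 cell of hucMSC-Exo 2. Basophil-gated cells had 0 A1 UMIs in each of 3 libraries, where 3 counts would have been 15.4, 58.9 and 79.7 CPM. The 23 cells gated as mature dendritic cells were too few for the class order in any library; they had 3498, 2283, 1663 and 2198 CPM of A1.

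Free RNA can put UMIs of a gene into cells that do not express it, so shares of cells are set against the basophil-gated cells. In IL-17 γδ T-gated cells 84.0% to 98.5% of the cells of a library had an A1 UMI, at a median depth of 4754 UMIs, and in basophil-gated cells 0%, at 3279. Computed as if every cell had 1000 UMIs, the IL-17 γδ T share was 65.9% to 90.5%. No class lacked Mcl1, so no such background can be given for it.

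**Figure D1:**
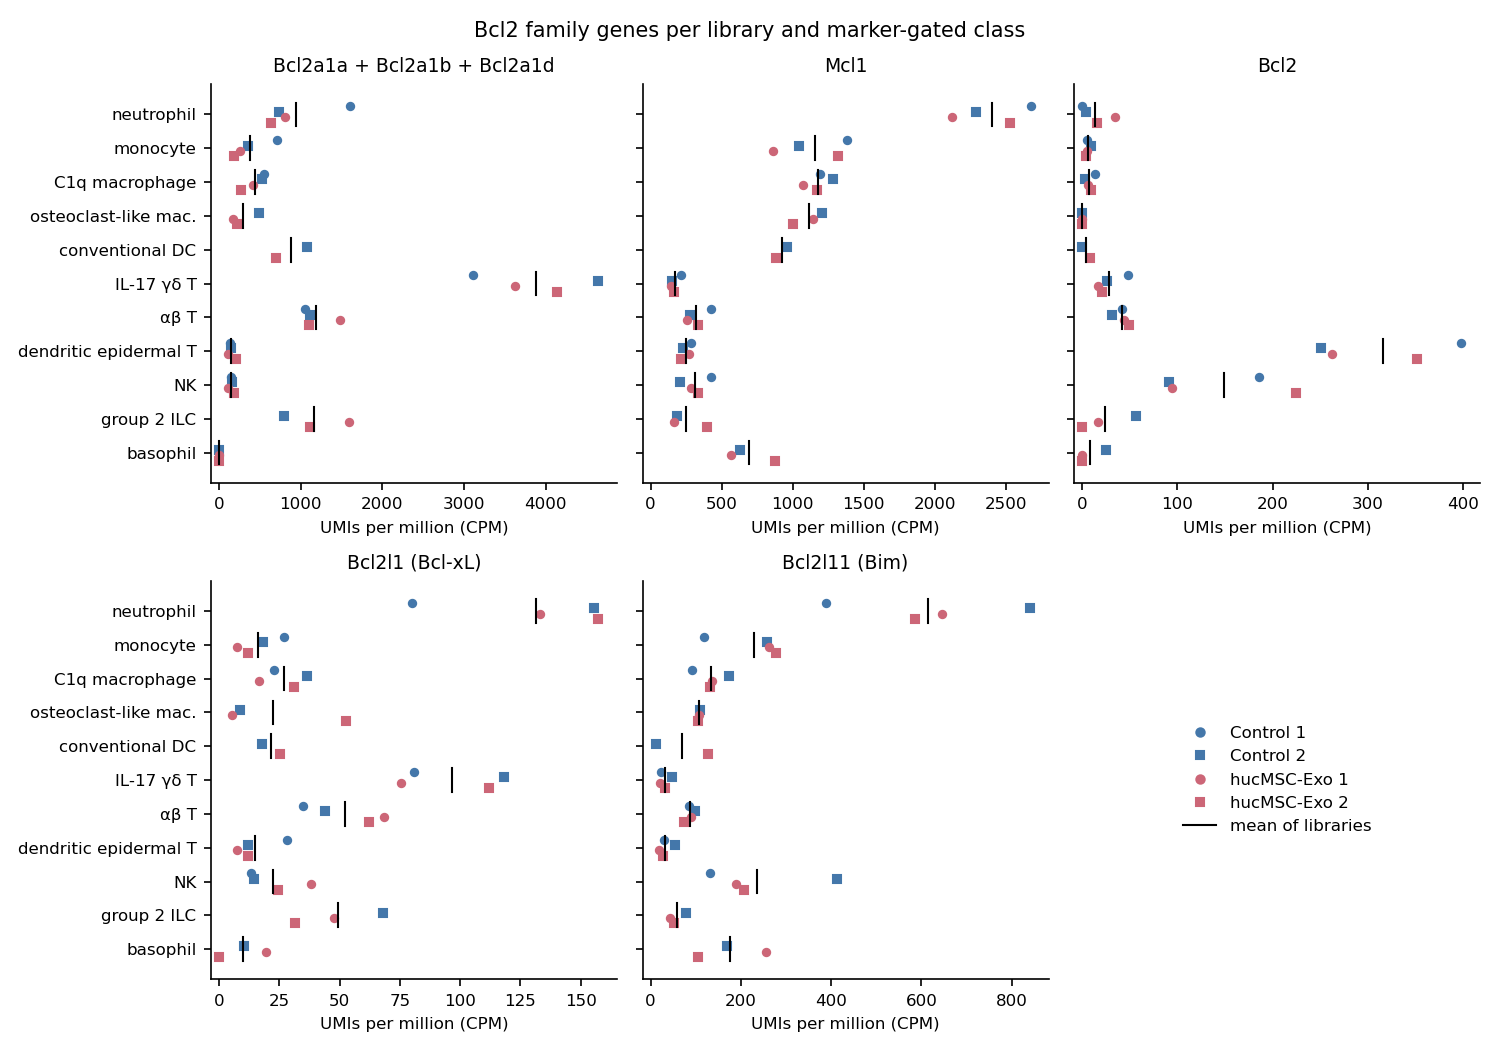
Levels of the family in UMIs per 1000000 UMIs (CPM, linear axes) per library for the named marker-gated classes, each point a library with at least 10 cells and each bar the mean of the libraries. The sum of the A1 genes is highest in IL-17 γδ T-gated cells, Mcl1, Bcl2l1 and Bcl2l11 in neutrophil-gated cells and Bcl2 in dendritic epidermal T-gated cells.

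Bcl2a1a separated IL-17 γδ T-gated from αβ T-gated cells more sharply than its neighbours did. It had 316.1, 601.5, 385.8 and 606.2 CPM in IL-17 γδ T-gated cells and 0, 7.45, 11.02 and 5.99 CPM in αβ T-gated cells of the same libraries. Each IL-17 γδ T value was above every αβ T value. As a share of A1 UMIs, Bcl2a1a made up 13.2% in IL-17 γδ T-gated cells (1504 of 11416, exact 95% interval 12.6% to 13.8%) and 0.562% in αβ T-gated cells (20 of 3561, 0.343% to 0.866%). Group 2 innate lymphoid cells had 0.384% (4 of 1043, 0.105% to 0.979%), natural killer-gated cells 0 of 91 UMIs (upper bound 3.97%) and T-gated cells without a subclass 5.24% (55 of 1049, 3.97% to 6.77%). In neutrophil-gated cells the share was 20.2% (316 of 1561, 18.3% to 22.3%), and the libraries had 19.3%, 21.1%, 21.6% and 19.6%. Monocyte-gated cells had 10.8% (133 of 1230, 9.13% to 12.7%) and C1q macrophage-gated cells 12.6% (346 of 2752, 11.4% to 13.9%), so all 3 myeloid classes held Bcl2a1a. The intervals cover counting error only. Dendritic epidermal T-gated cells had 7.40% (43 of 581, 5.41% to 9.84%), but 28 of those UMIs came from 1 cell of Control 1.

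**Figure D2:**
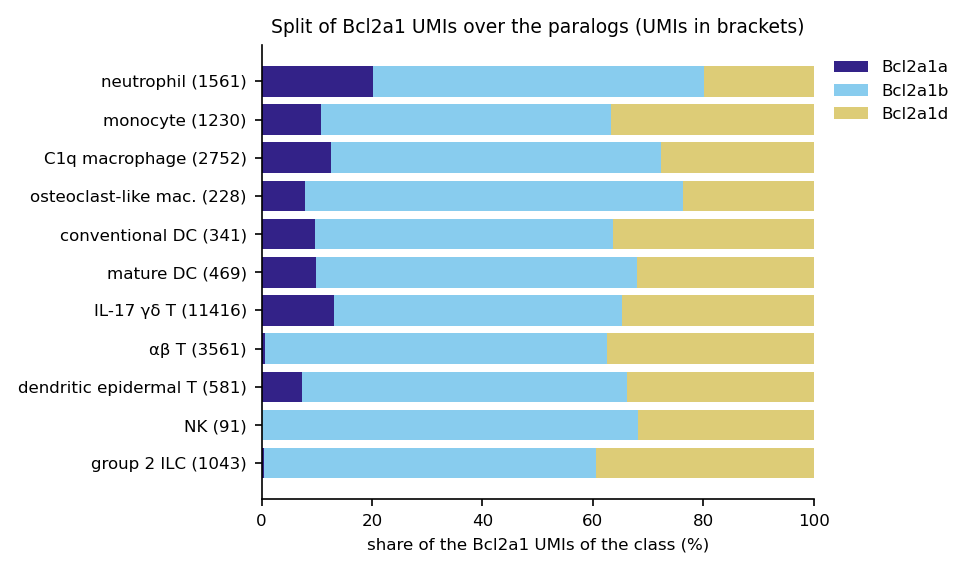
Share of the A1 UMIs of each class (percent, all libraries pooled) that were assigned to Bcl2a1a, Bcl2a1b and Bcl2a1d, with the number of UMIs in brackets. Bcl2a1a takes 20.2% in neutrophil-gated cells and 13.2% in IL-17 γδ T-gated cells, against 0.562% in αβ T-gated cells.

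The tests that follow compare sums of UMIs per library with edgeR's quasi-likelihood method and adjust p-values over all genes tested by Benjamini-Hochberg. Between hucMSC-Exo and Control the p-values measure the spread between mice, of which there are 2 per group. In the contrasts between classes, or between parts of a class, each mouse gives both sides, so the library is a block. There the p-values measure the spread that remains between libraries after the block. For the classes this spread was estimated over all classes together. Log2 changes carry their standard error (SE).

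Between IL-17 γδ T-gated and αβ T-gated cells 6 of 7 members differed, Bcl2a1a by the most. Bcl2a1a was higher by 6.27 on the log2 scale (SE 0.41, Benjamini-Hochberg adjusted p = 2.29e-17). Bcl2a1b had 1686, 2356, 1925 and 2170 CPM against 692, 678.4, 864 and 707, and was higher by 1.52 (SE 0.30, Benjamini-Hochberg adjusted p = 0.000142). Bcl2a1d had 1106, 1686, 1307 and 1367 CPM against 357, 422, 608 and 391, and was higher by 1.68 (SE 0.27, Benjamini-Hochberg adjusted p = 5.66e-06). All 3 were higher in 4 of 4 libraries with no overlap, and the A1 sum by 1.75 (SE 0.31). Bcl2l1 was higher by 0.97 (SE 0.27, Benjamini-Hochberg adjusted p = 0.00927), a call that DESeq2 did not give (0.89) and that was lost when Control 2 (0.77) or hucMSC-Exo 2 (1.02) was left out. Mcl1 and the BH3-only Bcl2l11 went the other way in 4 of 4 libraries, by -0.88 (SE 0.21, Benjamini-Hochberg adjusted p = 0.00197) and by -1.46 (SE 0.32, adjusted p = 0.000618). Bcl2 was not called. The family thus gave 4 higher and 2 lower of 7, where 11.6% of the 8854 genes tested were called, 5.3% higher and 6.3% lower. Here and in all further counts of members, the 3 near-identical A1 genes do not count as 3 separate results. The call counts were 1027 with all libraries and 594 without Control 2 or 646 without hucMSC-Exo 2.

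Dendritic epidermal T-gated cells showed the reverse choice, with little A1 and the most Bcl2. Bcl2 had 398, 251, 262 and 352 CPM there against 41.6, 32.0, 44.1 and 49.1 in αβ T-gated cells. Their lowest library was above every library of every other class, and natural killer-gated cells came next with 149 ± 66.8 CPM (n = 4), followed by T-gated cells without a subclass (86.2 ± 35.7, n = 4). From 15.6% of the kept cells, the dendritic epidermal T class gave 65.0% of the Bcl2 UMIs. In its libraries, 50.2% to 73.4% of the cells had a Bcl2 UMI at a median depth of 3481, or 21.9% to 33.9% at 1000 UMIs per cell. Osteoclast-like macrophage-gated cells had 0% in every library, at a median depth of 8723. For basophil-gated cells the share was 9.62% in Control 2 and 0% in hucMSC-Exo 1 and 2. Bcl2 was higher than in αβ T-gated cells by 2.85 (SE 0.29, Benjamini-Hochberg adjusted p = 5.52e-12) in 4 of 4 libraries. Bcl2a1b had 73.8, 82.2, 66.7 and 139 CPM, all below the αβ T values, and was lower (log2 -3.08, SE 0.33, Benjamini-Hochberg adjusted p = 2.29e-11). Bcl2a1d was lower by a like amount (log2 -3.14, SE 0.31, Benjamini-Hochberg adjusted p = 2.19e-12), as was the A1 sum (-3.02, SE 0.33). Without the 10% of cells with the highest doublet scores the mean of the A1 sum fell further, from 152 to 42.9 CPM, and Bcl2a1b then differed by -4.95. Bcl2l1 and Bcl2l11 were lower as well (log2 -1.72 and -1.41), while Mcl1 (log2 -0.38) and Bcl2a1a were not called. Bcl2a1a in these cells rests on the Control 1 cell named above, and its log2 difference of 0.61 became -0.39 without that library. Without the cells of high doublet score it was -3.98 and called lower. With 1 member higher and 4 lower of 7, this contrast stands beside 32.9% of genes called, 18% higher and 14.8% lower.

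Mcl1, whose protein is made and destroyed within hours, marked the myeloid classes. Neutrophil-gated cells had 2675, 2289, 2123 and 2529 CPM, and every one of these libraries was above every library of all other classes. Mononuclear phagocyte-gated cells without a subclass (1304), C1q macrophage-gated cells (1182 ± 88.1), monocyte-gated cells (1154 ± 243) and osteoclast-like macrophage-gated cells (1117) followed and overlapped. Conventional dendritic cells had 922, basophil-gated cells 693 and keratinocyte-gated cells 534 CPM on average. The lymphoid and plasmacytoid classes had lower means, though single libraries of them overlapped with the keratinocyte-gated range, with 322 ± 73.6 in αβ T-gated, 319 in plasmacytoid dendritic, 314 in natural killer-gated, 252 in group 2 innate lymphoid and 250 ± 35.1 in dendritic epidermal T-gated cells, and IL-17 γδ T-gated cells had the lowest mean with 215, 154, 148 and 165 CPM. Their range overlapped with single libraries of T-gated cells without a subclass (225 ± 58.7) and of plasmacytoid dendritic, group 2 innate lymphoid and natural killer-gated cells. Mcl1 and A1 thus had opposite ends in the same class, since IL-17 γδ T-gated cells ranked first for A1 and, by the mean, last of 15 for Mcl1. Against monocyte-gated, C1q macrophage-gated and αβ T-gated cells, Mcl1 in neutrophil-gated cells was higher in 4 of 4 libraries by 1.32 (SE 0.20), 1.34 (SE 0.20) and 3.43 (SE 0.22) on the log2 scale. The adjusted p-values were 1.81e-07, 7.81e-08 and 3.01e-20.

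Bcl2l1, which encodes the long-lived survival protein Bcl-xL, and Bcl2l11, which encodes its antagonist Bim, were both highest in neutrophil-gated cells. For Bcl2l1 these had 79.9, 155, 133 and 157 CPM, followed by IL-17 γδ T-gated cells with 96.7 ± 21.5 (n = 4). Control 1 overlapped the IL-17 γδ T range, and the other 3 libraries were above it. Monocyte-gated cells had only 16.2 ± 8.39 and dendritic epidermal T-gated cells 14.9 ± 9.13 CPM (n = 4 each). For Bcl2l11 the neutrophil-gated cells had 389, 841, 645 and 587 CPM, so the BH3-only member was high in the same class as Mcl1. Natural killer-gated cells (235 ± 122) and monocyte-gated cells (229 ± 74.0) came next and overlapped with each other, and Control 1 of the neutrophils lay within the natural killer range. Dendritic epidermal T-gated cells (33.0 ± 14.8) and IL-17 γδ T-gated cells (31.3 ± 12.4) were lowest and overlapped. Against monocyte-gated cells, neutrophil-gated cells were higher by 3.48 for Bcl2l1 (SE 0.31, Benjamini-Hochberg adjusted p = 5.13e-14) and by 1.68 for Bcl2l11 (SE 0.25, adjusted p = 1.10e-07), each in 4 of 4 libraries.

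Bcl2 was scarce in the myeloid classes. Neutrophil-gated cells had 0, 4.05, 35.04 and 15.4 CPM and monocyte-gated cells 5.76, 9.57, 5.61 and 3.797, and these overlapped. Osteoclast-like macrophage-gated cells had 0 Bcl2 UMIs. Neutrophil-gated cells were below αβ T-gated cells in 4 of 4 libraries (log2 -1.12, SE 0.46, Benjamini-Hochberg adjusted p = 0.0349), a call lost without Control 1 (-0.87), Control 2 (-0.89) or hucMSC-Exo 2 (-1.45), with a gate of 2 markers (-0.96) and without the library block (-1.11), so that 9 of 14 alternatives kept it.

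Taking neutrophil-gated cells as the class of reference, 5 of 7 members were higher than in monocyte-gated cells and 0 lower, where 45.1% of the 8854 genes tested were called, 21.8% higher and 23.3% lower. Bcl2a1a had 309, 155, 175 and 124 CPM against 72.9, 42.0, 18.7 and 21.3, a difference of 2.50 (SE 0.34, Benjamini-Hochberg adjusted p = 1.52e-08). The 2 groups of libraries did not overlap, nor did they for Bcl2a1b (log2 1.70, SE 0.32, Benjamini-Hochberg adjusted p = 1.32e-05). The A1 sum was higher by 1.503 (SE 0.32), with overlap, and by 1.303 (SE 0.31) against C1q macrophage-gated cells. Bcl2a1d (log2 0.60, adjusted p = 0.107) and Bcl2 (log2 1.25, adjusted p = 0.0787) were not called, although without Control 1 Bcl2a1d was (1.02), and without Control 2 (2.11) or with DESeq2 (1.36) Bcl2 was. Against C1q macrophage-gated cells 7 of 7 were higher, where 53.4% of genes were called, 24.5% higher and 28.8% lower. The calls of 2 of these depend on the setting. Bcl2a1d (log2 0.79, adjusted p = 0.0245) was called in 9 of 14 alternatives, and not without Control 2 (0.76), without hucMSC-Exo 2 (0.53), with a gate of 4 markers (0.74), without TMM scaling (0.45) or without the library block (0.75). Bcl2 (log2 1.25, adjusted p = 0.0492) was called in 6 of 14, where adjusted p ran from 0.0112 to 0.409. It lost the call without Control 2 (1.18), hucMSC-Exo 1 (1.07) or hucMSC-Exo 2 (0.86), with a gate of 4 markers (0.82), without high doublet scores (1.27), with DESeq2 (1.18), without TMM scaling (0.81) and without the library block (1.23). Against αβ T-gated cells 4 members were higher and 2 lower, where 57.5% of genes were called, 26.7% higher and 30.8% lower. Here the A1 genes parted, with Bcl2a1a higher by 5.21 (SE 0.44, Benjamini-Hochberg adjusted p = 5.08e-15) and Bcl2a1d lower (log2 -0.89, SE 0.30, Benjamini-Hochberg adjusted p = 0.00954), the latter lost without hucMSC-Exo 1 (-0.56). For the A1 sum, which adds the UMIs assigned to each of the 3 genes, the log2 difference was 0.05 (SE 0.31) and there was no call. Bcl2a1b was not called (log2 0.02, adjusted p = 0.979) and turned to -0.45 without TMM scaling. That scaling moved the median of all genes in the 3 neutrophil contrasts, from -0.41, -0.62 and -0.78 without it to -0.08, -0.18 and -0.18, and the called members of those contrasts kept their sign under both. Of the genes called in them, 48.3%, 45.9% and 46.5% were higher in neutrophil-gated cells with the scaling and 33.0%, 29.9% and 28.1% without it, so the shares called higher and lower that stand beside the members depend on it.

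The rest of the pathway was read from lists of genes. Each count below stands beside the share of all genes called in that contrast, higher and lower, which was 21.8% and 23.3% for neutrophil-gated against monocyte-gated cells, 24.5% and 28.8% against C1q macrophage-gated cells and 26.7% and 30.8% against αβ T-gated cells. For IL-17 γδ T-gated and dendritic epidermal T-gated against αβ T-gated cells it was 5.3% and 6.3%, and 18% and 14.8%. Of 14 NF-κB units and targets, the class of genes to which A1 itself belongs, 8 were higher and 0 lower in neutrophil-gated than in monocyte-gated cells (median log2 0.73, against -0.08 for all genes). Against C1q macrophage-gated cells these numbers were 11 and 0 (0.89 against -0.18), and against αβ T-gated cells 9 and 0 (1.32 against -0.18). In neutrophil-gated cells Control 1 stood apart in some of these genes, with 4941 CPM of Nfkbia and 1008 of Tnfaip3. The other libraries had 2065, 2130 and 2322 CPM of Nfkbia and 189, 154 and 192 of Tnfaip3. IL-17 γδ T-gated cells exceeded αβ T-gated cells in 9 of the 14 and were lower in 1 (0.94 against -0.06), and dendritic epidermal T-gated cells were higher in 1 and lower in 7 (-0.73 against 0.07). The median of the list stood on the same side of 0 as the A1 sum in each of these contrasts. In neutrophil-gated against αβ T-gated cells, however, the A1 sum was near 0 and not called (0.05). Any link between the list and A1 was not tested. For the other lists the counts follow the order of these contrasts, neutrophil-gated cells against monocyte-gated, C1q macrophage-gated and αβ T-gated cells, then IL-17 γδ T-gated and dendritic epidermal T-gated against αβ T-gated cells. Of the pore-forming effectors Bax, Bak1 and Bok, 2 were tested, with 0, 0, 0, 0 and 1 higher and 2, 1, 0, 0 and 1 lower; Bak1 in neutrophil-gated against monocyte-gated cells had the largest of these changes (log2 -1.21, SE 0.30, Benjamini-Hochberg adjusted p = 0.000779). Of the other BH3-only genes 3 were tested, and 0, 1, 1, 0 and 0 were higher and 1, 1, 0, 0 and 2 lower. Among 4 tested genes listed for Mcl-1 turnover, 1, 1, 1, 0 and 1 were higher and 1, 0, 1, 1 and 0 lower. The largest change among them was that of Trib1, a scaffold that brings proteins to a ubiquitin ligase, which was higher by 4.45 in neutrophil-gated than in αβ T-gated cells (SE 0.27, Benjamini-Hochberg adjusted p = 4.70e-21). In each neutrophil contrast Trib1 was the only gene of this list called higher. Whether Trib1 acts on Mcl-1 in these cells was not tested. Downstream caspases, adaptors and inhibitors, 9 of them tested, had 3, 4, 3, 0 and 1 higher and 2, 1, 3, 1 and 4 lower. For 5 other Bcl2-like genes these numbers were 3, 2, 1, 0 and 0 higher and 0, 0, 0, 0 and 1 lower. Among 9 receptors of survival cytokines, 2, 1, 3, 2 and 3 were higher and 4, 3, 6, 0 and 4 lower. Of these, Csf2ra, a chain of the GM-CSF receptor, was higher by 7.17 in neutrophil-gated than in αβ T-gated cells (SE 0.36, Benjamini-Hochberg adjusted p = 2.18e-23), and Il7r, the interleukin 7 receptor, was lower in dendritic epidermal T-gated than in αβ T-gated cells (log2 -3.53, SE 0.35, Benjamini-Hochberg adjusted p = 1.16e-12). The further pro-survival genes Bcl2l2 and Bcl2l10 did not pass the filter of the class contrasts, and Bcl2a1c was not listed.

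Whether hucMSC-Exosomes moved the family was asked within 5 classes. No member passed the test in the 4 of them with 2 libraries per group, and the last has a lone Control library. In neutrophil-gated cells (48, 318, 72 and 507 cells) Bcl2a1b had 968, 423, 519 and 386 CPM. Control 1 stood apart with 48 cells and the groups overlapped. Its log2 difference of hucMSC-Exo minus Control was -0.40 (SE 0.42, Benjamini-Hochberg adjusted p = 1.00), and 0.03 without Control 1. The A1 sum differed by -0.48 (SE 0.41). Mcl1 had 2675, 2289, 2123 and 2529 CPM, Bcl2l1 79.9, 155, 133 and 157, and Bcl2l11 389, 841, 645 and 587. In each of these 3 the groups overlapped, and their log2 differences were 0.06, 0.28 and 0.04. Without Control 1 they were -0.03, -0.13 and -0.50, and without TMM scaling those of Mcl1 and Bcl2l11 were -0.09 and -0.04. Bcl2a1d, with 329 and 158 CPM in Control against 119 and 122 in hucMSC-Exo, was the 1 of 6 tested members whose groups did not overlap (log2 -0.77), where 25.6% of genes did not overlap, 16% with hucMSC-Exo lower and 9.54% with it higher. Bcl2 was too low for the test. Of the 3709 genes tested in these cells, edgeR called 0 (0%), 46 had an unadjusted p under 0.05 and DESeq2 called 0.

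In monocyte-gated cells the A1 genes differed by more than in the other 3 classes with 2 libraries per group, again without passing the test. Bcl2a1a had 72.9 and 42.0 CPM in Control against 18.7 and 21.3 in hucMSC-Exo, Bcl2a1b 365 and 172 against 142 and 111, and Bcl2a1d 271 and 139 against 91.6 and 55.4. All 3 were lower in both hucMSC-Exo libraries, and Control 1 was above Control 2 in each. Their log2 differences were -1.36 (SE 0.39), -0.96 (SE 0.40) and -1.38 (SE 0.42), with Benjamini-Hochberg adjusted p = 1.00 for each. For the sum the log2 difference was -1.15 (SE 0.37). Without Control 2, Bcl2a1b (-1.41, adjusted p = 0.0466) and Bcl2a1d (-1.79, adjusted p = 0.0301) passed the test, as did Bcl2a1d without the filter on low counts (-1.35), and without Control 1 Bcl2a1b was at -0.36. Over all alternatives the adjusted p of Bcl2a1b ran from 0.0466 to 1.00 and that of Bcl2a1d from 0.0301 to 1.00. Bcl2l1 had 26.9 and 18.4 against 7.48 and 12.2 CPM, and Bcl2l11 119 and 257 against 262 and 279. In these too the groups did not overlap, with Bcl2l1 lower and Bcl2l11 higher in hucMSC-Exo, so that 4 of 6 tested members were lower and 1 higher. Of all genes, 31.5% did not overlap, 21.5% lower and 10% higher. edgeR called 0 of 6182 genes (0%), with 141 at an unadjusted p under 0.05 and 0 by DESeq2; without Control 2 it called 73.

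In C1q macrophage-gated cells Bcl2a1b had 336 and 323 CPM in Control against 214 and 174 in hucMSC-Exo (log2 -0.74, SE 0.33, Benjamini-Hochberg adjusted p = 1.00). Bcl2a1a, with 70.2 and 66.0 against 56.1 and 30.3 CPM, and Mcl1, with 1194 and 1287 against 1072 and 1174, did not overlap either. The A1 sum differed by -0.62 (SE 0.36). These 3 of 7 were all lower in hucMSC-Exo, where 20.5% of genes did not overlap, 10.8% lower and 9.74% higher. Of 7433 genes edgeR called 0 (0%), 75 had an unadjusted p under 0.05 and DESeq2 called 0, while without Control 2 edgeR called 79. In αβ T-gated cells the groups of 3 of 6 tested members did not overlap. Bcl2l1 had 35.02 and 43.9 CPM in Control against 68.3 and 62.3 in hucMSC-Exo, Bcl2 41.6 and 32.0 against 44.1 and 49.1, and Bcl2a1b 692 and 678.4 against 864 and 707. These 3 did not overlap and were higher in hucMSC-Exo, with log2 differences of 0.68, 0.41 and 0.20 (0.26 for the A1 sum, with overlap) and Benjamini-Hochberg adjusted p = 1.00 for each. Of all genes 31.7% did not overlap, 15.4% higher and 16.3% lower. In these cells edgeR called 0 of 5916 genes (0%), 168 had an unadjusted p under 0.05 and DESeq2 called 2; without 1 library edgeR called from 14 without hucMSC-Exo 2 to 54 without Control 2. Osteoclast-like macrophage-gated cells gave 1 Control library against 2, and 4 of 4 tested members were lower in hucMSC-Exo by CPM and 3 of 4 by the fit, where Bcl2l11 was at 0.06; by CPM, 49.2% of all genes did not overlap, 31.9% lower and 17.3% higher. Bcl2a1b had 334 CPM in Control 2 against 118 and 185, and Mcl1 1208 against 1142 and 1002. The log2 differences of Bcl2a1b and Bcl2a1d were -1.08 and -1.92 (A1 sum -1.22), and 0.07 and 0.59 with no upper limit on genes. The test called 3 of 3186 genes there (0.0942%, 0.0314% higher and 0.0628% lower), none of them a member. They were Apod (log2 -7.37), Mmp9 (log2 5.02) and Dcn (log2 -3.45), and both Mmp9 and Dcn are also markers of the class gate. These calls assume that the lone Control library, of 39 cells, varies like the others. They fell to 0 with no upper limit on genes, where Mmp9 was at -0.29, without high doublet scores and without the filter on low counts, and DESeq2 called 1 gene, Apod.

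**Figure D3:**
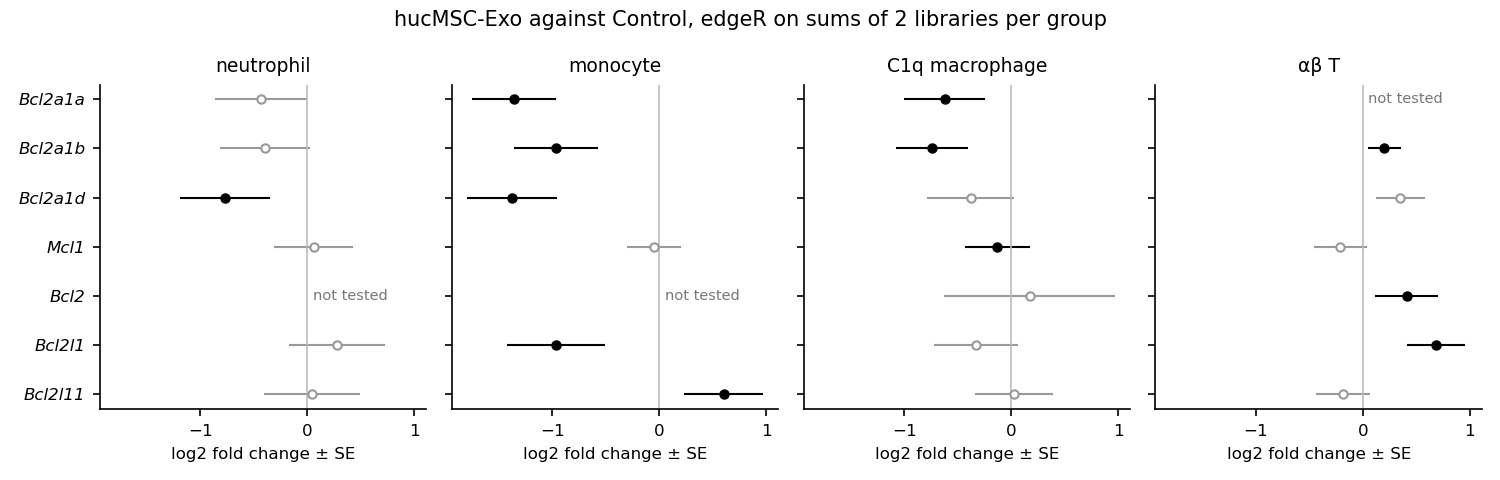
Log2 difference of hucMSC-Exo minus Control for each member in 4 classes with 2 libraries per group, with bars of 1 SE. Filled points mark members whose 2 groups of libraries did not overlap, open points the others; none passed the test after adjustment, and the A1 genes are lowest in monocyte-gated cells at -1.36, -0.96 and -1.38.

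The list of NF-κB units and targets had 0 calls in these comparisons. In neutrophil-gated cells 1 of 14 had a log2 difference above 0 (median -0.44, against 0.02 for all genes), in monocyte-gated cells 5 of 14 (-0.36 against 0.00) and in C1q macrophage-gated cells 3 of 14 (-0.20 against 0.01). In αβ T-gated cells 11 of 14 were above 0 (0.29 against 0.00). With 1 library left out these medians ran from -0.56 to -0.25, from -0.50 to -0.12, from -0.31 to -0.06 and from 0.13 to 0.65. The value nearest to 0 came without Control 1 in neutrophil-gated, monocyte-gated and αβ T-gated cells. In monocyte-gated cells it was -0.12, close to -0.15 without hucMSC-Exo 1. For C1q macrophage-gated cells the median was -0.06 both without Control 1 and without Control 2. The other 7 lists had 0 calls in the 5 classes as well.

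The share of neutrophil-gated cells with a Bcl2a1b UMI, taken at 1000 UMIs per cell, was 44.6%, 25.3%, 29.6% and 21.5% in the 4 libraries, and the groups overlapped. The mean was 25.5% ± 5.72 in hucMSC-Exo and 34.96% ± 13.6 in Control (SD, n = 2 each), -9.42 points apart (exact two-sided permutation p = 0.667, where 0.333 is the smallest that 2 against 2 can give). This leaves out 2 and 6 cells of Control and 1 and 13 of hucMSC-Exo that had fewer UMIs. With all cells at their own depth the shares were 56.3%, 39.6%, 37.5% and 32.0%, -13.2 points apart (exact permutation p = 0.333). At 1000 UMIs per cell the difference rests on Control 1, without which it was 0.19 points. At full depth Control 2, with 39.6%, also stood above both hucMSC-Exo libraries. In basophil-gated cells, at a median of 3279 UMIs against 2124 in neutrophil-gated cells, the share was 0%. For Mcl1 the shares were 83.8% ± 3.22 in hucMSC-Exo and 84.6% ± 2.89 in Control, -0.73 points apart (exact permutation p = 0.667), and 94.95% and 95.6% at full depth. At 1000 UMIs per cell the Mcl1 difference was 1.31 points without Control 1 and 1.54 points without hucMSC-Exo 1.

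Retnlg encodes a resistin-like protein of mature neutrophils, and the study uses it and Bcl2a1b as marks of its neutrophil subtypes, so their opposition in these cells is no independent support. The question put here was which other members follow Bcl2a1b when neutrophil-gated cells are divided by Retnlg. Cells with a Retnlg UMI numbered 13, 88, 22 and 194, against 35, 230, 50 and 313 without, with library medians of 2084 to 2397 UMIs with Retnlg and 1780 to 2144 without. Bcl2a1b had 133, 209, 428 and 206 CPM with Retnlg against 1327, 514, 559 and 520 without. Bcl2a1d had 66.5, 27.2, 45.1 and 71.9 against 442, 214, 153 and 160.0, and Bcl2a1a 33.2, 49.9, 180.2 and 37.9 against 428, 200.2, 173 and 188. Bcl2a1b and Bcl2a1d were lower in 4 of 4 libraries and Bcl2a1a in 3 of 4, all but hucMSC-Exo 1. Their log2 differences were -1.24 (SE 0.22), -1.67 (SE 0.32) and -1.82 (SE 0.33), with Benjamini-Hochberg adjusted p = 0.0122, 0.0159 and 0.0127. The A1 sum was lower as well (log2 -1.44, SE 0.23). Mcl1 had 2725, 2409, 2320 and 2438 CPM with Retnlg against 2654, 2238, 2034 and 2597 without (log2 0.16, SE 0.10, Benjamini-Hochberg adjusted p = 0.426). Bcl2l1 (log2 0.04, SE 0.23) and Bcl2l11 (log2 -0.24, SE 0.14) were not called either, and their sides overlapped, so within neutrophil-gated cells the calls fell on A1 alone. That the A1 genes differ from Mcl1 in this was not tested, and Bcl2 was too low for the test. The 3 called of 6 tested members stand beside 2.19% of 1869 genes, 1.5% higher and 0.696% lower. These 3 share reads and include Bcl2a1b, the study's own mark, so they do not count as 3 separate results. Without hucMSC-Exo 2, the library with the most neutrophils, Bcl2a1b (-1.29) and Bcl2a1a (-1.51) lost the call and 7 genes were called in place of 41, while without hucMSC-Exo 1 there were 95. Without the library block 1 gene was called, and none of the A1 genes. Of 13 tested NF-κB units and targets, 1 was lower and 0 higher, namely Nfkbia (log2 -0.64, SE 0.15, Benjamini-Hochberg adjusted p = 0.0349). Without TMM scaling the median of all genes moved from -0.02 to -0.14 and 74 genes were called, of which 31.1% were higher in place of 68.3%, so lower calls were then the more common kind. The A1 calls held.

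**Figure D4:**
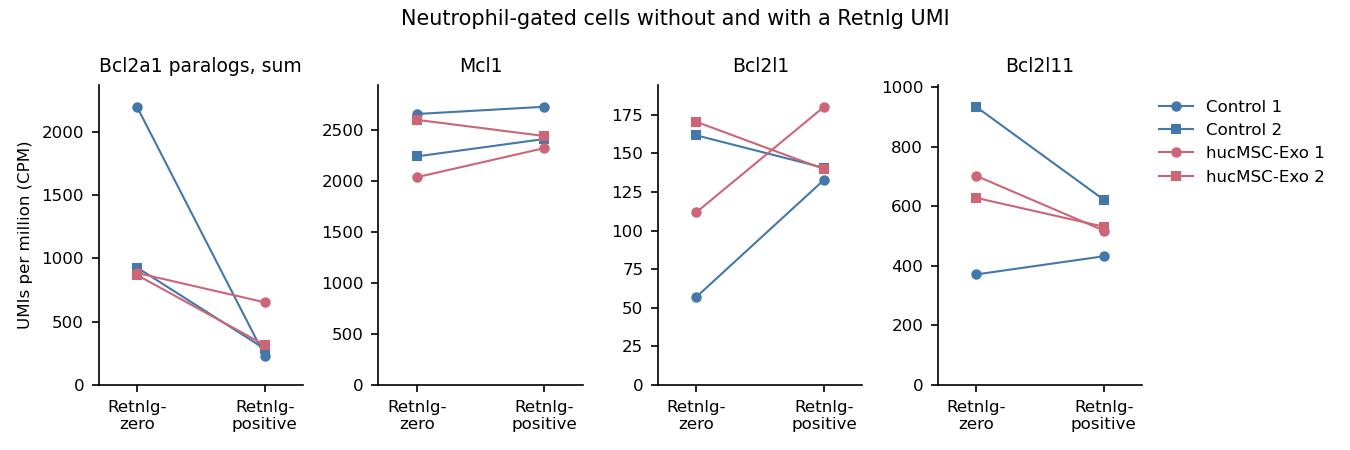
Levels in UMIs per 1000000 UMIs (CPM) of the A1 sum, Mcl1, Bcl2l1 and Bcl2l11 in neutrophil-gated cells without and with a Retnlg UMI, with a line for each library. The A1 sum is lower with Retnlg in 4 of 4 libraries, and the lines of Bcl2l1 cross.

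Across the 15 classes, the genes whose order of class means was most like that of Bcl2a1b, among 8854, were Bcl2a1d (Spearman 0.964), the NF-κB unit Relb (0.950), Mmp25 (0.938), Bcl2l1 (0.918) and Fam129a (0.918). Bcl2a1a was further off with 0.634, and Mcl1 (-0.279) and Bcl2l11 (-0.296) had no like order. Most like Bcl2 were Klrb1f (0.967), Hdgfl3 (0.955), Bcl9l (0.954), Zbtb44 (0.954) and Entpd5 (0.946). These values are descriptions over classes that share 4 libraries.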

How the data were processed

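The 4 libraries were made with 10x 3′ chemistry, and the authors' deposited values are counts of UMIs per gene and cell from Cell Ranger 6.1.2 and mm10, without normalization. Kept cells had 200 to 3000 genes and no more than 10% of their UMIs from mitochondria. A cell took the lineage, of 13, with the most of 8 markers, at least 3, and none on a tie, and a subclass from at least 2 markers. UMIs were summed per library and class with at least 10 cells and tested with edgeR 4.0.16 (quasi-likelihood, TMM, filterByExpr, Benjamini-Hochberg over all genes, threshold 0.05) in R 4.3.3. The classes shared 1 fit with the library as block. Shares used exact two-sided permutation tests over libraries, and shares of UMIs exact Clopper-Pearson intervals. Shares at 1000 UMIs are expected values. Tables were made with python 3.11.15, numpy 2.4.6, pandas 2.3.3, scipy 1.17.1 and scanpy 1.11.5 (Scrublet). Positions come from GENCODE M21. The tests were tried on simulated data. Named are all 7 members, their A1 sum and at most 5 called genes per list with the largest change. Here the largest alone was named for a list, apart from Il7r. That gene had the largest change among the receptors in dendritic epidermal T-gated against αβ T-gated cells. Also named are up to 10 non-overlapping called genes per hucMSC-Exo comparison, and the 5 genes most like Bcl2a1b and Bcl2 in log2(CPM + 10). A gene that is also a gate marker was left out of the lists. Members and lists were chosen with earlier results of these data known. Alternatives were gates of 2 or 4 markers, no upper limit on genes, no high Scrublet scores, DESeq2 1.42.0, no TMM, no filter, summed paralogs, a replicate block, no library block, another split gene, other thinning and leaving out each library. A gate without the keratinocyte list and a replicate block with the pairs crossed were chosen after seeing the data.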

Additional observations from a re-analysis of the deposited data

Results flagged for a closer look

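For 3 members every hucMSC-Exo library stood above every Control library in 1 class and below in another, which is what brought them here. Mean CPM of Bcl2a1b was 785 with hucMSC-Exo and 685 with Control in αβ T-gated cells, but 126 and 268 in monocyte-gated and 194 and 329 in C1q macrophage-gated cells. Bcl2l1 had 65.3 and 39.5 in αβ T-gated cells against 9.81 and 22.6 in monocyte-gated cells. For Bcl2 the means were 46.6 and 36.8 in αβ T-gated and 25.2 and 2.03 in neutrophil-gated cells, and 4.70 and 7.66 in monocyte-gated cells. The neutrophil values of Bcl2 rest on 5 UMIs in 3 cells and 18 UMIs in 5 cells with hucMSC-Exo, against 0 and 3 UMIs with Control. Its monocyte values rest on 3 and 5 UMIs with hucMSC-Exo, against 3 and 13 UMIs with Control. There hucMSC-Exo 1 had 5.61 CPM and Control 1 had 5.76 CPM. The difference between the classes was not tested, and Bcl2 was too low for a test in neutrophil-gated and monocyte-gated cells. Such separation is common, since 25.6%, 31.5%, 20.5% and 31.7% of all genes tested did not overlap in neutrophil-gated, monocyte-gated, C1q macrophage-gated and αβ T-gated cells, and 9.54%, 10%, 9.74% and 15.4% of all genes were so with hucMSC-Exo higher.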

How the results depend on the processing

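Of 986 alternative values of members in the contrasts, 913 kept direction and side of the threshold, 28 lost the call, 7 gained it and 38 turned. Counts of called genes stayed within 1.5 times in 122 of 154, and the class levels within 1 SD in 1002 of 1032. Of 465 for other named genes 433 held, 31 lost the call and 1 turned, and 5 of 22 for shares of cells turned. The cause was not tested for any change below. Each member kept its highest class under the gates and left-out libraries that were run.

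Without the filter on low counts, edgeR called 10 genes between hucMSC-Exo and Control in neutrophil-gated, 45 in monocyte-gated, 18 in C1q macrophage-gated, 37 in αβ T-gated and 0 in osteoclast-like cells; Bcl2l11 was at -0.0381 in the last, and Bcl2a1b at -0.0571 in neutrophils against αβ T cells. A replicate block gave 5 calls in αβ T-gated cells, and the crossed block, chosen after seeing the data, 3 in monocyte-gated and 18 in C1q macrophage-gated cells. DESeq2 called 1 gene in osteoclast-like and 2 in αβ T-gated cells, and 26 in the Retnlg split. Without TMM, Mcl1 (-0.0894) and Bcl2l11 (-0.0425) in neutrophil-gated and Bcl2l11 (-0.0514) in osteoclast-like cells turned, as did Bcl2a1b against αβ T cells (-0.45) and Bcl2l1 in the Retnlg split (-0.0863), which then had 74 calls.

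With no upper limit on genes, osteoclast-like cells had 0 calls and Bcl2a1b 0.0672, Bcl2a1d 0.59, Mcl1 0.0704 and Mmp9 -0.29, and Bcl2a1a in dendritic epidermal against αβ T cells was -0.35. Without high Scrublet scores there were 0 calls in osteoclast-like cells (Bcl2l11 -0.19), Bcl2a1a in dendritic epidermal T cells was -3.98, the Retnlg split had 62 calls and the Mcl1 share differed by 0.358 points. A gate of 4 markers put Bcl2l11 in osteoclast-like cells at -0.0516. Without the keratinocyte list, a choice made after seeing the data, it was -0.22, and Bcl2a1b in neutrophils against αβ T cells -0.0336. With the paralogs summed, Bcl2a1d took the value of the sum, 0.0515 against αβ T cells, and Bcl2a1a -3.02 in dendritic epidermal T cells. In the Retnlg split, no library block gave 1 call, and a split on Slc2a3 gave 19, with Mcl1 at -0.0420 and Bcl2l1 at -0.0579. Thinned to 1000 UMIs, Mcl1 was -0.14 there. That is 1 random draw, and another draw by an earlier version of the script left Mcl1 above 0, so this sign depends on the draw. Thinned to 2000 UMIs, the Mcl1 share differed by 0.112 points.

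When 1 library was left out, the counts of calls ran from 1 to 15 in neutrophil-gated, 0 to 73 in monocyte-gated, 0 to 79 in C1q macrophage-gated and 14 to 54 in αβ T-gated cells, 594 to 921 for IL-17 γδ T against αβ T and 7 to 95 in the Retnlg split. Log2 differences of hucMSC-Exo minus Control in neutrophil-gated cells ran from -0.77 to 0.0290 for Bcl2a1b, -0.0274 to 0.15 for Mcl1, -0.13 to 1.21 for Bcl2l1 and -0.50 to 1.00 for Bcl2l11. Mcl1 ran from -0.34 to 0.19 in monocyte-gated and from -0.47 to 0.10 in αβ T-gated cells. In C1q macrophage-gated cells the ranges were -1.10 to 0.11 for Bcl2a1d, -0.83 to 1.52 for Bcl2, -0.74 to 0.0523 for Bcl2l1 and -0.33 to 0.55 for Bcl2l11. Bcl2a1b in neutrophils against αβ T cells ran from -0.0285 to 0.19, Bcl2a1a in dendritic epidermal T cells from -0.39 to 1.05 and Bcl2l1 in the Retnlg split from -0.00995 to 0.29. The shares differed by -19.0 to 0.190 points for Bcl2a1b and -3.00 to 1.54 for Mcl1. A fit that leaves 1 library in a group assumes that it varies like the others.

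No value came for Bcl2 in C1q macrophage-gated cells without high Scrublet scores, for Bcl2a1d and Bcl2l1 in the thinned Retnlg split, and for Apod and Dcn in osteoclast-like cells under some limits on cells. With 1 Control library against 2, osteoclast-like cells allowed no replicate block and not every left-out library.

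There are 2 mice per group, so the tests between groups see large changes alone, and Control 1 has 48 neutrophil-gated cells. Classes rest on marker lists and may hold other cells. Reads shared by the 3 A1 genes cannot be placed. RNA levels say nothing of protein amounts or of cell death.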
